A study of Mus musculus with 10 samples.

Results

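Intergenic isoforms are long-read transcripts that lie outside the genes of the annotation, and they were taken as the rows of the deposited isoform tables whose structural category is intergenic. They numbered 762 of 17765 isoforms, with 444 of 9476 in CD8SP thymocytes and 318 of 8289 in CD4SP thymocytes, and came from 409 loci in CD8SP and 295 loci in CD4SP. CD8SP and CD4SP cells are mature single-positive T cells of the thymus that carry only CD8 or only CD4 as coreceptor. All were from C57BL/6 mice aged 6 to 8 weeks, and 2 to 3 thymi were pooled for each sample. Cells with the other coreceptor were removed on magnetic beads, and TCRβ+ CD24- cells of the wanted lineage were then sorted. Long-read libraries were made from PCR-amplified full-length cDNA, and short-read libraries from total RNA depleted of ribosomal RNA. Of 10 samples, each lineage had 1 PacBio long-read library and 4 Illumina short-read samples whose labels differ by lane and whose values are pooled in 1 file. Each lineage thus has a single list and a single short-read value, and tests between lists cover counting error only, not differences between mice.

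The coreceptor genes followed the labels. Cd8b1 stood at 464 FPKM (a fragment count corrected for transcript length and sequencing depth) in the CD8SP short-read file and 25.6 in the CD4SP file, and Cd4 at 0.872 FPKM in CD8SP and 107 in CD4SP. In pooled cells, fewer cells with a transcript and less RNA per cell cannot be told apart. Among Cd79a, Lyz2, Itgax, Hbb-bs and Epcam, which mark other cells, the highest was the globin Hbb-bs, at 3.11 FPKM in CD8SP and 3.67 in CD4SP. Cd24a, whose protein the sort selected against, was listed at 10.1 FPKM in CD8SP and 11.8 in CD4SP. Of the immature thymocyte genes, Rag1 was at 4.12 FPKM in CD8SP and 12.5 in CD4SP, and Ptcra at 0.167 and 0.213. The deposited tables give no read count per isoform, so the depth behind each isoform is unknown and every isoform counted once.

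Transcripts outside annotated genes include long non-coding RNAs, transcripts that start at promoters and enhancers, and extensions of genes past their annotated ends. In full-length cDNA sequencing, first-strand synthesis from an oligo-dT primer can begin at a poly(A) tail and also at a stretch of A encoded in the template. For that reason isoform tables list the percent of A in the genome just after the 3′ end of each isoform. A predicted open reading frame (ORF) in such a transcript is a property of its sequence and no measure of a protein.

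Of the placed intergenic isoforms, 3 met a promoter window of the RefSeq table (GRCm38.p6), and their sequences are shown because the first and second hold the A-rich bases after a 3′ end and the third holds a 5′ start. In the first, a plus-strand CD8SP isoform (chr14:75888420-75890623) ended inside the window of the predicted gene Gm52138, chr14:75890442-75890741, and the capitals mark the 20 bases after its end, of which 85% are A. In the second, a plus-strand CD8SP isoform (chr19:41009089-41011677) ended inside the window of the long non-coding RNA gene C330026H20Rik, chr19:41011629-41011928, whose gene lies on the minus strand. There the capitals mark the 20 bases after its end, of which 90% are A. In the third, a minus-strand CD4SP isoform (chr17:46889217-46890447) began inside the window of Tbcc, chr17:46890371-46890670, a gene of the plus strand that encodes a cofactor of tubulin folding. Its first base lay 174 bases before the RefSeq start of Tbcc, and the capitals mark the 77 bases of the window that lie inside the isoform, which open with a run of T. Each line reads 5′ to 3′ in the direction of the isoform.
End at Gm52138: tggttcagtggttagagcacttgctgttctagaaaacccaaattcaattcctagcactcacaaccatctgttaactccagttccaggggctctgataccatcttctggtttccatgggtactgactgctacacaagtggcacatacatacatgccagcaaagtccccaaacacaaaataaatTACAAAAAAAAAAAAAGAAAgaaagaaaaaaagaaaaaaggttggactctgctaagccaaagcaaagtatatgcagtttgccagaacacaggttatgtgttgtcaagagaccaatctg
End at C330026H20Rik: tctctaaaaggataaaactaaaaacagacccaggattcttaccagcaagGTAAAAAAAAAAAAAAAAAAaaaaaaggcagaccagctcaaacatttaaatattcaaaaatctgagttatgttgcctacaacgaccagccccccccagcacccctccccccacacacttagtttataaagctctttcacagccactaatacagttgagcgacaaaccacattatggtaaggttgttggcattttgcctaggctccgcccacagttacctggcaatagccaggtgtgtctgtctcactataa
Start at Tbcc: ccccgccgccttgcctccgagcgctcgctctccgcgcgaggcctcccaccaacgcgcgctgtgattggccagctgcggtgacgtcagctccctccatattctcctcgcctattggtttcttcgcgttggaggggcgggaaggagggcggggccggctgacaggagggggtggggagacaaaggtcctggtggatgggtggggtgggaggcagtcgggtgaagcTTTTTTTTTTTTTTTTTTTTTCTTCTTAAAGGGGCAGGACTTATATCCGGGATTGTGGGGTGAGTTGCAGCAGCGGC
Over isoforms of any category, 24 had this window inside a RefSeq promoter window, and in 24 of 24 the percent of A counted in the sequence equalled the deposited value.

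Intergenic isoforms were nearly all made of 1 exon, were less often called coding than the other isoforms of their library, and more often ended before A-rich genome. In CD8SP, 424 of 444 intergenic isoforms had 1 exon (95.5%, 95% Clopper-Pearson interval 93.1 to 97.2), against 63.2% of the 9032 other isoforms. In CD4SP the shares were 94.0% of 318 (90.8 to 96.4) and 65.7% of 7971. A coding call was made for 24.1% of CD8SP intergenic isoforms (20.2 to 28.4), against 42.9% of the others, and for 25.8% of those of CD4SP (21.1 to 31.0), against 41.7%. At least 60% A after the 3′ end was listed for 83.8% of CD8SP intergenic isoforms (80 to 87.1), against 58.9% of the others. In CD4SP this held for 84.9% of intergenic isoforms (80.5 to 88.7), against 63.2%. Each of these 6 differences passed a 2-sided Fisher's exact test with Benjamini-Hochberg adjustment over the 6, with adjusted p between 1.2e-56 and 6.96e-09. The exon-number result was partly fixed by the category rule, since isoforms that share annotated junctions cannot be intergenic. Its test values (adjusted p = 1.2e-56 in CD8SP and 3.74e-32 in CD4SP, Fisher's exact test) are therefore description only.

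Exon number moved with the other measures. Among isoforms of 1 exon only, the coding share was 24.3% of intergenic and 22.1% of other isoforms in CD8SP, and 26.1% and 24.1% in CD4SP, so that the sign turned and neither difference passed the exact test (adjusted p = 0.406 and 0.445). In the same isoforms, the share with at least 60% A was 84.7% of intergenic and 80.9% of other isoforms in CD8SP, and 86.3% and 83.7% in CD4SP, and again neither passed the exact test (adjusted p = 0.215 and 0.406). The antisense category was close to intergenic isoforms in exon number and coding calls, with 1 exon in 90.7% in CD8SP and 89.5% in CD4SP and coding calls in 23.0% and 24.0%. In A content, intergenic isoforms lay between the antisense category, of which 94.9% in CD8SP and 94.7% in CD4SP had at least 60% A, and full splice matches to annotated transcripts, with 33.5% and 36.2%. Isoforms of 1 locus are not independent. With each locus counted once, the differences in coding calls and A content passed in both libraries, but this count was not restricted to isoforms of 1 exon. The difference in exon number also passed and is again description only.

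**Figure D1:**
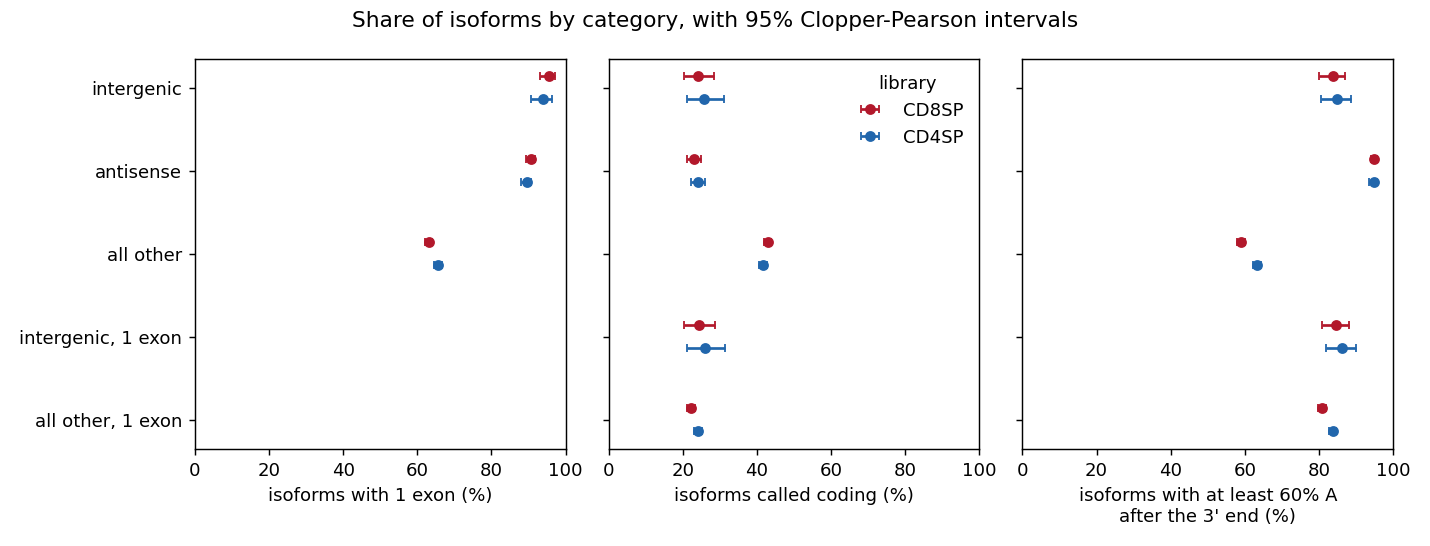
Share of isoforms with 1 exon, called coding and with at least 60% A after the 3′ end (x axes, percent) for each category (rows), in the CD8SP library (red) and the CD4SP library (blue), with 95% Clopper-Pearson intervals. The intergenic points stand apart from all other isoforms in each panel, and the rows restricted to 1 exon lie close together, at 24.3% against 22.1% coding in CD8SP.

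Between the lists, CD8SP held a larger share of intergenic isoforms, at 4.69% (4.27 to 5.13), against 3.84% (3.43 to 4.27) in CD4SP. This difference of 0.849 percentage points passed the exact test with adjustment over the 5 comparisons of the lists (adjusted p = 0.0268). Without isoforms that had at least 60% A, the shares were 1.90% in CD8SP and 1.61% in CD4SP, and the difference no longer passed the exact test (adjusted p = 0.68). Within the intergenic isoforms, the differences between CD8SP and CD4SP were 1.47 points in the share of 1 exon, -1.69 points in coding calls and -1.12 points in at least 60% A. None of these passed the exact test (adjusted p = 0.677, 0.688 and 0.688). The plus strand held 53.2% of the CD8SP and 49.1% of the CD4SP isoforms.

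The A content after the 3′ end came in steps of 5%, and 90% was the commonest step in both lists. It was listed for 140 CD8SP isoforms, which is 31.5% of the intergenic isoforms there, against 23.5% of all other isoforms. In CD4SP it was listed for 122 isoforms, or 38.4%, against 26.9%. Below 60%, the step at 15% held most in CD8SP, with 18 isoforms, and the steps at 15 and 20% in CD4SP, with 8 each. Just inside the threshold, at 60%, stood 4 isoforms in CD8SP and 8 in CD4SP, and just outside it, at 55%, stood 7 in CD8SP and 3 in CD4SP. The median was 80% in CD8SP and 85% in CD4SP, against 70% and 75% for all other isoforms.

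**Figure D2:**
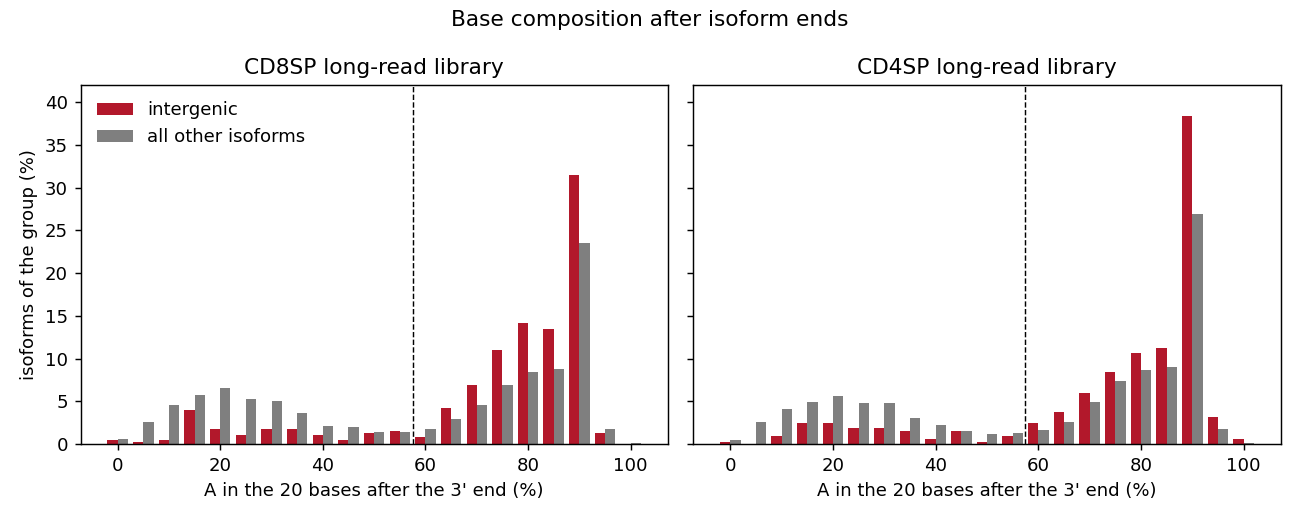
Share of isoforms (y axis, percent of each group) at each percent of A in the 20 bases after the 3′ end (x axis), for intergenic (red) and all other isoforms (grey) in the CD8SP library (left) and the CD4SP library (right). The dashed line marks the lower edge of the 60% class. The highest bar in both libraries is at 90% A, with 31.5% of intergenic isoforms in CD8SP and 38.4% in CD4SP.

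Intergenic isoforms were of ordinary length. The median was 2466 bases in CD8SP, with quartiles of 1956 and 3116, and 2689 bases in CD4SP, with quartiles of 2142 and 3383. All other isoforms had medians of 2604 and 2890 bases in CD8SP and CD4SP. The range ran from 569 to 5458 bases in CD8SP and from 207 to 5780 in CD4SP. Their ORFs were short. The median was 114 residues over the 107 coding isoforms of CD8SP and 116 over the 82 of CD4SP. It was 176 and 158 in all other coding isoforms, which included spliced ones. Antisense isoforms had medians of 114 residues in CD8SP and 117 in CD4SP, so short ORFs were not particular to intergenic isoforms. ORFs of at least 100 residues made up 95 of the 107 intergenic ones in CD8SP and 74 of the 82 in CD4SP. Among them, 7 CD8SP isoforms and 2 CD4SP isoforms reached 300 residues.

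Only 20 CD8SP and 19 CD4SP intergenic isoforms had more than 1 exon, and their splice junctions divided them. Junctions were listed as canonical in 8 of the 20 CD8SP isoforms and in 7 of the 19 CD4SP isoforms. The median A content after the end was 25% in the canonical isoforms of CD8SP and 55% in those of CD4SP, against 87.5% and 80% in the non-canonical ones. Reverse-transcriptase switching, a jump of the enzyme between repeats that can look like an intron, was called in 5 of the 20 CD8SP isoforms and 6 of the 19 CD4SP isoforms. In CD8SP, 18 isoforms had 2 exons and 2 had 3 exons, and in CD4SP, 16 had 2 exons and the other three had 3, 6 and 11.

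Of the spliced isoforms with at least 3 exons, the 3 with 3 exons had canonical junctions and little A after their ends. Isoforms that were not placed were located only between other loci of their list, so the genes named for them need not be neighbours. The median bracket was 1326024 bases in CD8SP and 1518288 in CD4SP. A CD8SP isoform of 2854 bases on the minus strand of chromosome 18 had 0% A. It lay between loci assigned to Dym and Smad7, in a bracket of 352631 bases. Smad7 encodes an inhibitor of TGF-β signalling. A CD4SP isoform of 2876 bases on the minus strand of chromosome 18 had 10% A and lay between loci of Me2 and 8030462N17Rik, an interval that holds the CD8SP one. Whether they are a single locus cannot be read from the tables, which give no ends for isoforms of several exons. A CD8SP isoform of 2219 bases on the minus strand of chromosome 5 had 15% A and lay between loci of Kmt2c and Paxip1. The 11-exon CD4SP isoform, of 2572 bases on chromosome 11 between Tspoap1 and Msi2, and the 6-exon CD4SP isoform, of 4178 bases on chromosome 12 between Ywhaq and Taf1b, had non-canonical junctions, with 85% and 75% A.

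Most intergenic loci held a single isoform, 379 of 409 in CD8SP and 274 of 295 in CD4SP. The CD8SP locus with most isoforms, 4, lay on the minus strand of chromosome 6, in a bracket of 1911024 bases. It was between loci of Ssbp1 and Trbc1, a constant-region gene of the T cell receptor β chain. Its isoforms measured 3092, 2744, 1960 and 1568 bases and had 65, 30, 15 and 75% A after their ends. A CD4SP locus with 3 isoforms, of 2684, 2141 and 1584 bases, lay on the same strand between loci of the same pair of genes. The other loci named for their isoform number held 3 each and lay between Akap5 and A430103D13Rik on chromosome 12 and between Dido1 and Ythdf1 on chromosome 2 in CD8SP. In CD4SP, the locus between Ccnj and Frat1 on chromosome 19 also held 3, and the one between Arl3 and Add3 on chromosome 19 held 2.

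Intergenic isoforms were spread over all autosomes and the X chromosome, and their distribution was compared with that of all other isoforms. In CD8SP, 0 of 23 chromosomes and unplaced sequences passed Fisher's exact test with Benjamini-Hochberg adjustment over both libraries, and 3 had an unadjusted p under 0.05. In CD4SP, 2 of 26 passed. Chromosome X held 13 of 318 intergenic isoforms in CD4SP, or 4.09%, against 1.53% of all other isoforms (adjusted p = 0.0484, Fisher's exact test), and chromosome 16 held 2, or 0.629%, against 3.85% (adjusted p = 0.0367). In CD8SP, X held 2.70% against 1.55% and chromosome 16 held 1.35% against 3.47% of the other isoforms, and neither passed the exact test (adjusted p = 0.29 and 0.15). The highest counts of intergenic isoforms were 40 on chromosome 7 and 39 on chromosome 11 in CD8SP, and 33 on chromosome 11 in CD4SP. These counts were close to the background. For chromosome 11, the intergenic minus other difference was -1.25 points in CD8SP (adjusted p = 0.813, Fisher's exact test) and 0.203 points in CD4SP. Chromosome 7 held 9.01% of intergenic against 7.01% of other isoforms in CD8SP (adjusted p = 0.348, Fisher's exact test). None of these differences passed. No intergenic isoform was on chromosome Y or the mitochondrial genome, for which the upper Clopper-Pearson limit is 0.827% in CD8SP and 1.15% in CD4SP.

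The unplaced sequence JH584304.1 held 4 intergenic isoforms in each library, from 3 loci each. Per isoform, its share was 0.901% against 0.277% of all other isoforms in CD8SP, and 1.26% against 0.301% in CD4SP. Neither passed Fisher's exact test (adjusted p = 0.219 and 0.15). With each locus counted once, its share passed Fisher's exact test in CD8SP (adjusted p = 0.0193) and in CD4SP (adjusted p = 0.00545), on 3 loci in each library. Among the intergenic isoforms there was a minus-strand isoform of 5141 bases with an ORF of 221 residues in CD8SP, which spanned bases 30390 to 35530, and a 2-exon isoform of 5085 bases with an ORF of the same length in CD4SP. A plus-strand CD4SP isoform spanned bases 30370 to 35502 of the same sequence, with an ORF of 130 residues.

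**Figure D3:**
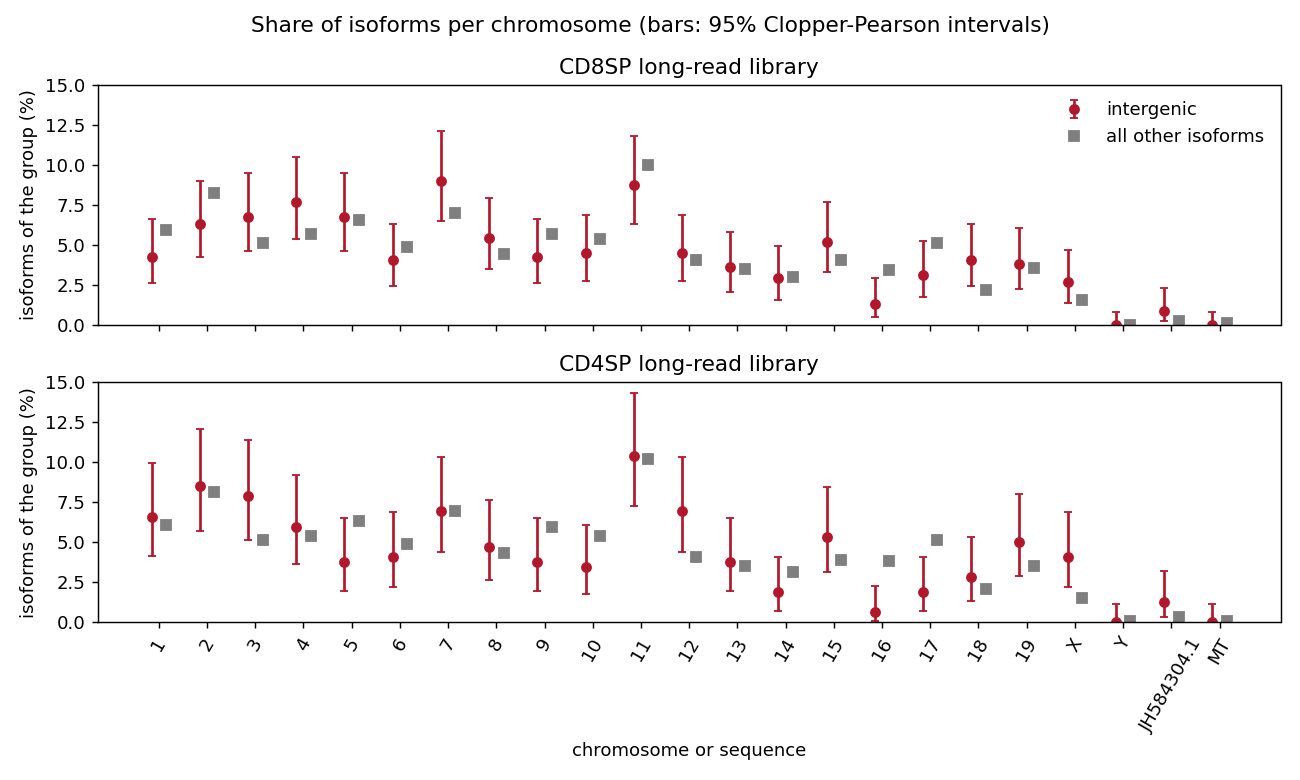
Share of intergenic isoforms (red, with 95% Clopper-Pearson intervals) and of all other isoforms (grey squares) on each chromosome (x axis, percent of each group on the y axis), in the CD8SP library (top) and the CD4SP library (bottom). In CD4SP, chromosome 16 stands lower, at 0.629% against 3.85%, and chromosome X higher, at 4.09% against 1.53%.

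Isoforms of 1 exon with an ORF could be placed to the base from the genomic position of the ORF, which gave 103 CD8SP and 78 CD4SP intergenic isoforms on GRCm38. None of the 181 overlapped a gene of GENCODE M21, while 17 in CD8SP and 11 in CD4SP overlapped the span of a RefSeq gene. The nearest annotated gene lay at a median of 5432 bases in CD8SP and 2968 bases in CD4SP, and at most 166909 and 135045 bases away. It was within 5000 bases for 50 of 103 CD8SP isoforms (48.5%, 38.6 to 58.6) and 48 of 78 CD4SP isoforms (61.5%, 49.8 to 72.3). Of these close isoforms, 27 in CD8SP and 22 in CD4SP lay past the 3′ end of the gene on its own strand. A further 14 and 17 lay past its 3′ end on the opposite strand, and 9 in each library lay before its start.

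The shortest distances were under 100 bases. A plus-strand CD8SP isoform, chr13:35874131-35877933, began 68 bases past the end of Cdyl, which encodes a chromodomain protein, and had 85% A after its own end. An isoform of both libraries followed Snx10, a sorting nexin gene, by 75 bases in CD8SP (chr6:51590754-51593166) and 73 bases in CD4SP (chr6:51590752-51593165). These 2 genes were chosen for the smallest distances, after the values were seen. Isoforms within 5000 bases past a gene on its strand had at least 60% A in 70.4% of 27 cases in CD8SP (49.8 to 86.2) and 77.3% of 22 in CD4SP (54.6 to 92.2). For all other placed isoforms these shares were 86.8% of 76 in CD8SP (77.1 to 93.5) and 83.9% of 56 in CD4SP (71.7 to 92.4), with overlapping intervals in both libraries.

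Some placed intergenic isoforms came as pairs that cover almost the same bases on opposite strands. With both ends within 50 bases, there were 5 pairs in CD8SP and 5 in CD4SP, 10 isoforms of each library, and 2 of the pairs were in both libraries. In a CD8SP pair near Blcap on chromosome 2, the plus-strand isoform spanned 157550642 to 157555581 and had 90% A after its end, and the minus-strand isoform spanned 157550669 to 157555610 and had 85% A. The CD4SP pair at that place spanned 157550640 to 157555577 on the plus strand and 157550669 to 157555610 on the minus strand. In all 10 pairs both isoforms had at least 60% A, with a range of 65 to 95%. A partner was found for 11.8% of the 85 placed CD8SP isoforms with at least 60% A (5.79 to 20.6), against 0 of 18 under 60% A (0 to 18.5). In CD4SP the shares were 15.6% of 64 (7.76 to 26.9) and 0 of 14 (0 to 23.2). The intervals overlapped in both libraries, so no contrast by A content is read from the placed pairs.

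The ends of the pairs were offset the same way. In 10 of 10 pairs both ends of the minus-strand isoform lay to the right of those of the plus-strand isoform, by 21 to 35 bases at the left end and 11 to 37 bases at the right end. The A-rich window after the 3′ end of the minus-strand isoform thus lay inside the plus-strand isoform in 10 of 10 pairs, and the window after the plus-strand 3′ end lay inside the minus-strand isoform in 6 of 10. With both ends required within 20 bases no pair was left, and within 100 bases there were 12 isoforms with a partner in each library.

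**Figure D4:**
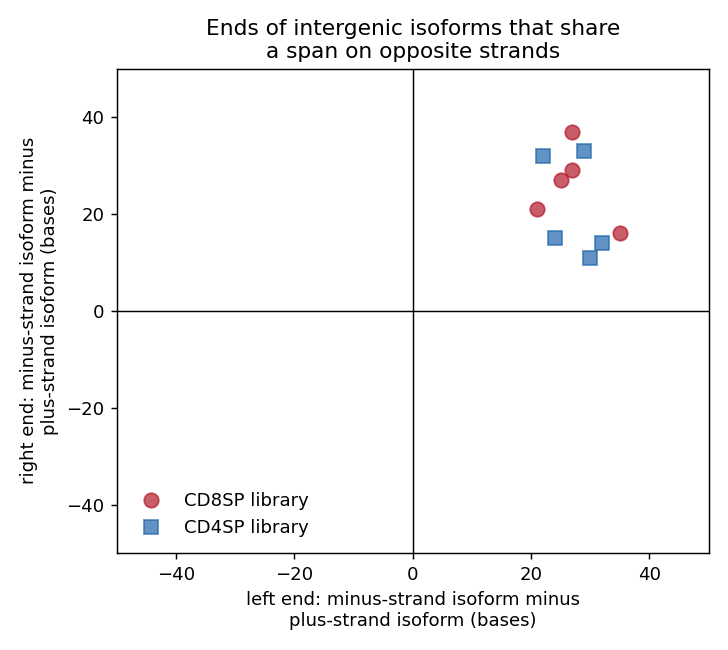
Offset between the ends of the 10 pairs of placed intergenic isoforms that share a span on opposite strands, as the minus-strand position minus the plus-strand position in bases at the left end (x axis) and the right end (y axis), for CD8SP (circles) and CD4SP (squares). All pairs lie above and to the right of zero, at 21 to 35 bases on the left and 11 to 37 bases on the right.

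The same arrangement could be counted among isoforms that were not placed, since loci are numbered along each chromosome. Taking a plus-strand and a minus-strand intergenic isoform of 1 exon at successive locus numbers with lengths within 50 bases gave 54 pairs in CD8SP and 44 in CD4SP. These were of 79 plus-then-minus successive loci of any length in CD8SP and 58 in CD4SP. Minus-then-plus successive loci of any length numbered only 10 in CD8SP and 8 in CD4SP, and 0 in each had lengths within 50 bases. The plus strand thus mostly came first at any length, for a reason that was not tested, and nothing is read from that count. Where both members were placed, their ends were within 50 bases in 5 of 5 such pairs in CD8SP and 5 of 6 in CD4SP. These pairs held 108 of 424 CD8SP isoforms of 1 exon (25.5%, 21.4 to 29.9) and 88 of 299 in CD4SP (29.4%, 24.3 to 35.0). At least 60% A was listed for 94.4% of the paired isoforms in CD8SP (88.3 to 97.9), against 81.3% of those with no such partner (76.6 to 85.5), and for 95.5% (88.8 to 98.7) against 82.5% (76.6 to 87.3) in CD4SP.

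Most of the longest isoforms of 1 exon were members of such pairs. In CD8SP they measured 5458 bases on the minus strand and 5442 on the plus strand of chromosome 8, between loci of Gpat4 and Golga7, with 50% and 85% A. Next came the 5141-base isoform of JH584304.1, for which no placed CD8SP isoform on the opposite strand had both ends within 50 bases. In CD4SP the longest measured 5780 bases on the plus strand and 5776 on the minus strand of chromosome 8, between loci of Vps35 and Phkb, with 90% and 75% A. The third, chr19:47490358-47496045 on the minus strand, measured 5688 bases and lay 4988 bases from Stn1, with a plus-strand partner of 5678 bases.

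A part of the placed isoforms was found in both libraries. A 3′ end within 100 bases on the same strand was found in the other list for 29 of 103 CD8SP isoforms (28.2%, 19.7 to 37.9) and 29 of 78 CD4SP isoforms (37.2%, 26.5 to 48.9). Both ends were equal to the base in 7 isoforms of each list. One of these was chr11:49666670-49671277 on the minus strand, 226 bases past Cnot6, which encodes a subunit of the CCR4-NOT deadenylase, with an ORF of 152 residues and 85% A in both lists. By A content, the share found in both lists was 27.1% of 85 such CD8SP isoforms (18 to 37.8), against 33.3% of 18 under 60% A (13.3 to 59.0). In CD4SP it was 35.9% of 64 (24.3 to 48.9), against 42.9% of 14 (17.7 to 71.1). The intervals overlapped in both lists.

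Of the other long loci found in both lists, those near Blcap, on both strands, and near Atg5 and Med27, on the minus strand, had 80 to 95% A after their ends. Those near Klhl10 and Ythdf2, on the minus strand, had 10 to 50%. Near Atg5, an autophagy gene, the isoform spanned chr10:44366026-44370530 in CD8SP and chr10:44366009-44370728 in CD4SP. The isoform at Klhl10 spanned chr11:100457125-100461694 in CD8SP, with 15% A, and chr11:100457124-100461696 in CD4SP, with 10% A. It overlapped the RefSeq span of Klhl11, and short-read exons covered 100% of it in both files. For the CD8SP isoform, a transcript over all its bases was listed at 0 FPKM in the CD8SP file and 0.0741 in the CD4SP file. Its last 100 bases also met a transcript of at least 1 FPKM in the CD8SP file. Past Ythdf2, a reader of methylated adenosine in mRNA, the isoform spanned chr4:132180673-132183360 in CD8SP, with 50% A, and chr4:132180664-132184416 in CD4SP, with 45% A.

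The share of isoforms with a short-read exon over any of their last 100 bases was lower in intergenic isoforms than in other isoforms of 1 exon with an ORF. The intervals did not overlap in either lineage in its own file. Contact with at least 1 of these bases was enough, so the share does not measure how much of the end was covered. The short-read transcripts include reference ones beside assembled ones, some at 0 FPKM, such as Cd79a, and exons of either strand were counted. Isoforms inside annotated genes can thus be covered by reference exons alone. The gap is therefore partly fixed by the category and is not read as a difference in expression. A listed short-read exon met the last 100 bases of 55 of 103 placed CD8SP isoforms in the CD8SP file (53.4%, 43.3 to 63.3). Over all 1-exon CD8SP isoforms with an ORF, of any category, this share was 81.4%, and over the 1263 that were not intergenic it was 83.7% (81.5 to 85.7). In the CD4SP list and the CD4SP file it was 53 of 78 (67.9%, 56.4 to 78.1), against 86.1% of all and 87.2% (85.3 to 89.0) of the 1260 others. In the file of the other lineage, such an exon was listed for 56 of 103 CD8SP isoforms (54.4%), beside 82.9% of all. For CD4SP isoforms it was listed for 46 of 78 (59.0%), beside 81.8% of all. The CD8SP share of 53.4% and the CD4SP share of 67.9%, each in its own file, differed by -14.6 points (CD8SP minus CD4SP), which did not pass the test (adjusted p = 0.165, Fisher's exact test). Counting only transcripts of at least 1 FPKM, the shares were 15.5% in CD8SP and 16.7% in CD4SP, a difference of -1.13 points.

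A group of placed isoforms had no short-read cover at all. No base lay under a listed exon in either file for 27 of 103 CD8SP isoforms (26.2%, 18 to 35.8) and 8 of 78 CD4SP isoforms (10.3%, 4.53 to 19.2). At the other end, at least 80% of the bases were covered in the file of their own lineage for 39 CD8SP and 43 CD4SP isoforms. Isoforms within 5000 bases past a gene on its strand had a median cover of 91.7% in CD8SP and 95% in CD4SP, against 21.6% and 84% for the other placed isoforms. An exon met at least part of their last 100 bases in 23 of 27 cases in CD8SP and 17 of 22 in CD4SP, against 32 of 76 and 36 of 56. A cover of 0 means that no exon, assembled or reference, was listed there, and not that no read fell there. Cover above 0 can come from an exon of a transcript at 0 FPKM.

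A few loci were covered in 1 short-read file only, and these were chosen after their values were seen. At least 80% of the bases were covered in the CD8SP file and 0 in the CD4SP file for 2 CD8SP and 3 CD4SP isoforms, and the other way for 3 CD8SP and 3 CD4SP isoforms. Several of these isoforms share a place or recur in both lists, so the counts are not of separate loci. The 3 CD4SP isoforms covered in the CD4SP file alone all lay at the place near Ccr7 named next. The plus-strand isoform chr11:99173541-99175316 had the same ends in both long-read lists, lay 18464 bases from Ccr7, the chemokine receptor gene of naive T cells, and overlapped the RefSeq long non-coding RNA gene Gm32249. No assembled exon lay there in the CD8SP file, while in the CD4SP file a transcript at 0.985 FPKM, with a deposited interval of 0.91 to 1.06, covered 100% of it. Close to Nsg2, an isoform found in both long-read lists had a transcript at 0.552 FPKM (0.455 to 0.648) in the CD8SP file and none in the CD4SP file. At most named loci levels were low, such as 0.782 FPKM (0.687 to 0.875) past Cnot6 in CD8SP, against 2.22 in CD4SP, a value above its own interval of 1.62 to 1.87.

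The intergenic isoforms with the longest ORFs had little or no short-read cover. The longest, of 846 residues, belonged to a plus-strand CD8SP isoform, chr7:60778875-60782313, 22096 bases from the predicted gene Gm7394, with 70% A after its end and 0% of its bases covered in either file. An ORF of 623 residues belonged to a minus-strand CD8SP isoform, chr9:17197805-17200932, which overlapped the RefSeq long non-coding RNA gene Gm39296. It was covered over 0% in the CD8SP file and 2.43% in the CD4SP file. The CD4SP transcript there, over 76 of its bases, was listed at 218 FPKM. That value lies above its own interval of 0 to 1.09, so no level is read from it.

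A long ORF found in both lists lay past Eif4g2, which encodes a translation initiation factor. The minus-strand isoform spanned chr7:111064043-111066920 in CD8SP, with an ORF of 460 residues and 65% A, and chr7:111064017-111066572 in CD4SP, with an ORF of 536 residues and 40% A. Both ORFs ended at base 111064697. Short-read cover was 14.3% of the CD8SP isoform in the CD8SP file and 16.7% of the CD4SP isoform in the CD4SP file. Over all placed isoforms with an ORF of at least 300 residues, cover in the file of their lineage reached 50% of the bases in 0 of 7 in CD8SP (interval 0 to 41.0%) and 0 of 2 in CD4SP (0 to 84.2%). With an ORF of 150 to under 300 residues it did so in 4 of 13 in CD8SP and 5 of 10 in CD4SP. With an ORF under 150 residues it did so in 51 of 83 in CD8SP (61.4%, 50.1 to 71.9) and 44 of 66 in CD4SP (66.7%, 54.0 to 77.8). In CD4SP the interval of the longest ORFs spans that of the shortest, so no contrast is read there.

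**Figure D5:**
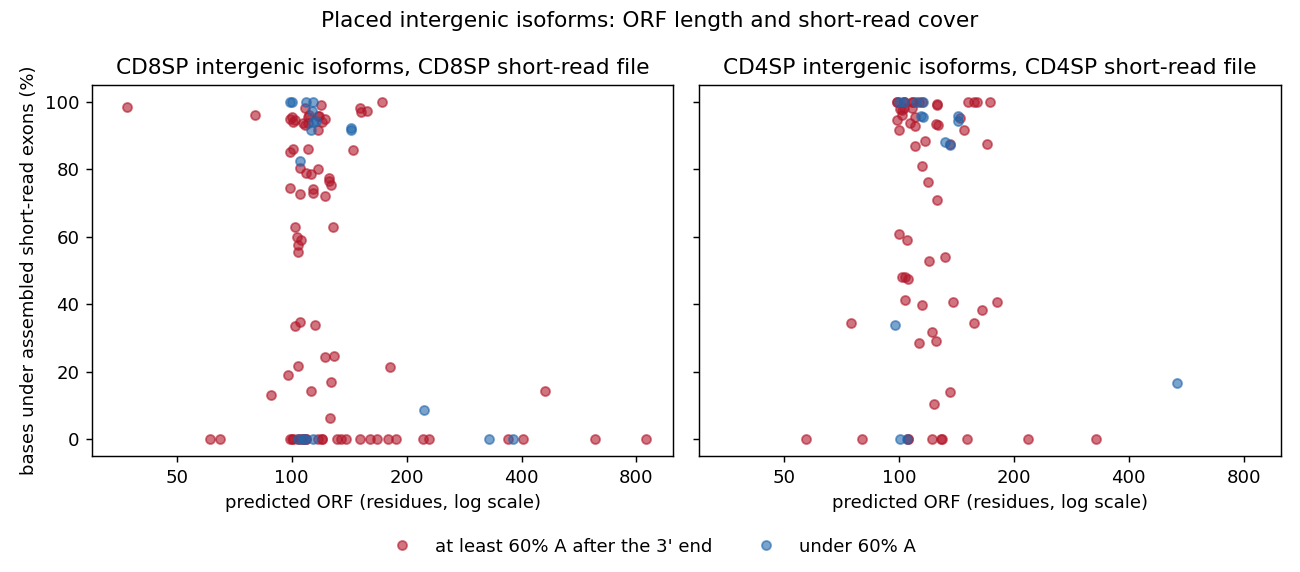
Percent of bases under short-read exons of the same lineage, assembled or reference (y axis), against the length of the predicted ORF in residues (x axis, log scale) for each placed intergenic isoform of CD8SP (left) and CD4SP (right). Colour gives the A content after the 3′ end (red, at least 60%; blue, under 60%), and isoforms with ORFs of at least 300 residues lie at 16.7% cover or below.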

How the data were processed

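The long-read tables hold collapsed isoforms, 1 line each, with length, exon number, ORF, category and the percent of A past the end, per the file headers. Their distances to annotated ends, treated as a score, are as deposited and were used to place isoforms of annotated genes. Columns for read counts are empty. The deposited short-read files give FPKM with an interval per transcript, for 637618 transcripts in CD8SP and 686660 in CD4SP. The FPKM lies outside its interval in 37.1% and 35.8% of them, so the intervals are an incomplete measure of error. Among the tools in the submitters' processing notes are Cufflinks 2.1.1, TopHat2 2.0.14, RSEM 1.3.1, GSNAP, Trimmomatic and FastQC, with GRCm38 as the build, with no statement of their roles. A further deposited table, of values per lineage, was not used here.

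Isoforms of 1 exon were placed from the genomic start of their ORF and checked against GENCODE M21: 178 of 178 in CD8SP and 133 of 133 in CD4SP with an annotated transcript had the same ends by both routes. Other isoforms were located by neighbouring loci, which held 98 of 99 placed CD8SP and 72 of 73 placed CD4SP isoforms. Shares have Clopper-Pearson intervals and 2-sided Fisher's exact tests (scipy 1.17.1) with Benjamini-Hochberg adjustment at 0.05, tested on simulated data. Intervals cover counting error only. RefSeq promoter windows matched 3 intergenic isoforms. The members, lists and named loci (most exons, most isoforms, longest, longest ORF, in both lists) were chosen with earlier results of these data known. Alternatives counted loci once, left out A-rich isoforms, isoforms of several exons or unplaced sequences, and changed thresholds. A marker gene and a named locus are not reported here.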

Additional observations from a re-analysis of the deposited data

How the results depend on the processing

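Of 52 alternatives over 17 results, 41 left the result as it was: direction and side of the threshold where there was a test, and otherwise a value within its counting error. Leaving out isoforms with at least 60% A took the CD8SP minus CD4SP difference in intergenic share to 0.293 points, which no longer passed. With 1 exon only, the intergenic minus other difference in coding share turned to 2.15 points in CD8SP and 2.01 in CD4SP, and that in A-rich share shrank to 3.80 and 2.58 points, and none passed. The CD8SP minus CD4SP difference in A-rich share never passed and turned sign with loci counted once (0.525 points) and at a threshold of 50% A (0.548 points). Counting loci once gave 1 called sequence in CD8SP, JH584304.1, and 4 in CD4SP, with chromosome 3 and JH584304.1 added to 16 and X. Requiring ends within 20 bases left 0 strand pairs. This tolerance, that of 100 bases and overlap as a match between lists were chosen after seeing the data. Causes not named by the setting itself were not tested. No paired analysis was possible because each lineage has 1 long-read list and 1 pooled short-read file. The planned search for polyadenylation hexamers was not run, as no genome sequence was used here. Read counts are unknown, so depth per isoform cannot be weighed.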

Other observations

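Several placed isoforms that the GENCODE annotation leaves between genes overlapped RefSeq gene spans. Any overlap on either strand was counted. The RefSeq genes with an isoform of both lists were Gm32249, Klhl11, LOC102631992, Perm1 with Gm46877, and the pseudogene Pisd-ps2. The RefSeq genes met in CD8SP alone were the zinc finger gene Zfp33b, the TRIM gene Trim30c, Gm46353 and Gm40011, listed as protein-coding, and the long non-coding RNA genes Bmncr, Gm33624, Gm52118, Gm26008, Gm39296, C330016L05Rik and C330026H20Rik. In CD4SP alone these were Srp54c, Bicral, Gid8 with Gm30455, and Cdyl2, whose isoform spanned chr8:116568726-116573982, had 0% A after its end and was covered over 100% in both short-read files. Where an isoform overlaps a RefSeq span, cover can come from reference exons.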
